A study of Mus musculus with 6 samples.

Results

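The CCAAT/enhancer-binding proteins (C/EBPs) are a small family of transcription factors, and 6 genes carry the name in mouse: Cebpa, Cebpb, Cebpd, Cebpe, Cebpg and Cebpz. These 6 of the 54532 genes in the deposited table were chosen by name, and the family was picked on the higher level of Cebpb in Igf2 cKO muscle, so that difference is a description here and supports nothing by itself. Muscle RNA of C57BL/6 mice was sequenced in 3 Control and 3 Igf2 cKO libraries. All mice were Igf2f/f, with loxP sites around exon 2 of Igf2, the gene of a fetal growth factor. Igf2 cKO mice also carried Mck-Cre, whose muscle creatine kinase promoter drives Cre recombinase in striated muscle fibres, and Control mice were littermates without it. The labels name neither the muscle, the age nor the sex, and the promoter is not known to be active in the other cells of the tissue.

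Libraries held between 16184371 and 17905203 counts, and 6 of 6 members were among the 14867 genes tested. Igf2 itself had between 33 and 60 counts in every library, with a log2 fold change of -0.31 ± 0.25 (SE, edgeR adjusted p = 0.751). A count summed over the gene cannot show loss of 1 exon in fibres and leaves the genotype labels unchecked. Fibre markers such as Ckm and Acta1 were abundant in all 6 libraries, as the tissue label says. The sources give n = 3 per genotype without stating that each library is 1 animal, so p-values measure the spread between these libraries. Values per library are given in the order of replicates 1, 2 and 3.

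Cebpa, Cebpb, Cebpd, Cebpe and Cebpg encode basic leucine zipper (bZIP) proteins, which pair through the zipper and touch DNA through the basic region. C/EBPβ and C/EBPδ respond early to hormones, cytokines and cyclic AMP, and C/EBPα acts in differentiated adipocytes, liver and myeloid cells. C/EBPε works in granulocytes, and C/EBPγ lacks a classical activation domain and serves mainly as a dimer partner. Cebpz encodes a CCAAT-binding protein named with the family that is not a bZIP protein. In muscle, C/EBPβ is known as a regulator of satellite cells and as a mediator of wasting signals.

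The bZIP members share the coding sequence of the basic region, shown here because it bears on how reads could be assigned between them. Each line gives 42 coding bases from the GENCODE M21 transcripts, 5′ to 3′, with the bases that are the same in all 5 genes in capitals. The stretches lie in coding exons on build GRCm38, at chr2:167689712-167689753 (Cebpb, plus strand), chr7:35120292-35120333 (Cebpa, plus), chr16:15887922-15887963 (Cebpd, plus), chr14:54710707-54710748 (Cebpe, minus) and chr7:35050585-35050626 (Cebpg, minus).
Cebpb: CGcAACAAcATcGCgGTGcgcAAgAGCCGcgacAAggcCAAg
Cebpa: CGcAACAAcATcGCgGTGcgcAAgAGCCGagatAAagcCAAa
Cebpd: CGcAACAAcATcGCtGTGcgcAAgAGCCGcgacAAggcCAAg
Cebpe: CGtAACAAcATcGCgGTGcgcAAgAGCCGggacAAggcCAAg
Cebpg: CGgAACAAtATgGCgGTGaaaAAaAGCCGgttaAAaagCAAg

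Of these 42 bases, 26 were the same in all 5 genes. Cebpd matched Cebpb at 41, Cebpe at 40, Cebpa at 38 and Cebpg at 28. Outside this stretch likeness was measured only as the longest shared run. The longest run of identical bases between transcripts of any 2 members was 29, between Cebpa and Cebpb. The stretch was set to start at the first base of that run, so it holds the run by choice. Cebpb shared runs of at most 27 bases with Cebpd, 26 with Cebpe and 13 with Cebpg. The sources used here do not give the read length.

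Opposite-strand neighbours are a second source of shared reads, since no strand setting is given for the counting. Cebpb is a gene of 1 exon (ENSMUSG00000056501, chromosome 2, 167688915 to 167690418, plus strand), and exons of Tmem189 on the other strand cover 312 of its 1504 bases (20.7%). Tmem189 had between 298 and 449 counts and a log2 fold change of 0.10 (edgeR adjusted p = 0.853). Exons of Spidr cover 562 of the 3746 exonic bases of Cebpd (15%), and Spidr had between 51 and 76 counts. For Cebpa the antisense gene Gm45091 covers 51 of 2636 exonic bases, and for Cebpz the gene Cebpzos covers 171 of 4658.

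Levels of different genes were compared per length, with the authors' FPKM (fragments per kilobase of gene, scaled to library size). In Control muscle Cebpb was the most abundant member, at 49.7 ± 5.63 FPKM (SD, n = 3), and its lowest Control library lay above the highest of every other member. Cebpd followed at 16.4 ± 6.66 FPKM, Cebpg at 12.7 ± 1.6 and Cebpa at 12.4 ± 5.58. The ranges of Cebpd and Cebpg overlapped, as did those of Cebpg and Cebpa, so the order among these 3 is not separated by the libraries. Cebpz stood lower, at 5.95 ± 0.39 FPKM. Cebpe was lowest at 0.625 ± 0.211 FPKM, with each of its libraries under 1.

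**Figure D1:**
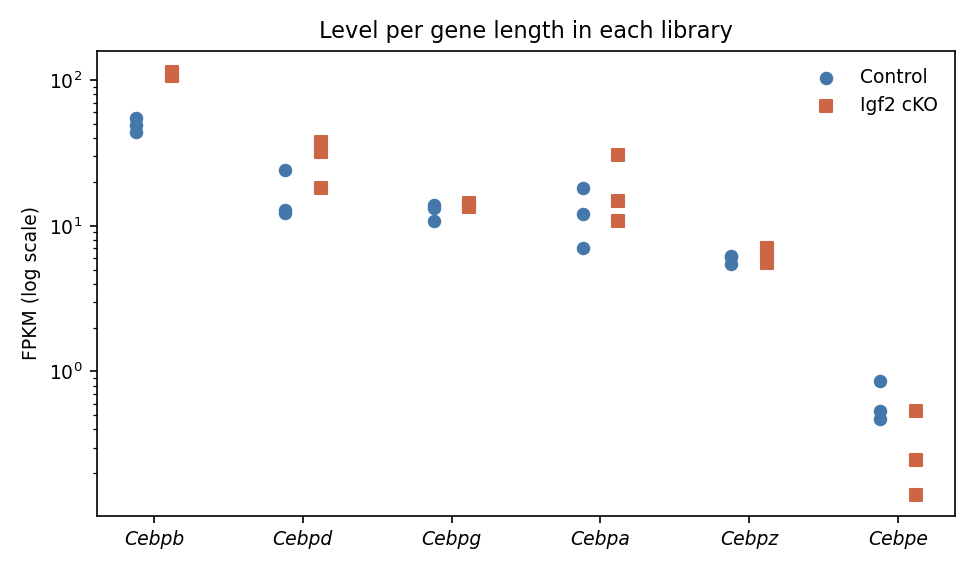
FPKM on a log axis for the 6 members in the 3 Control (circles) and 3 Igf2 cKO (squares) libraries. Cebpb lies above the other members in every library, from 44.1 FPKM in Control replicate 3 to 114 in Igf2 cKO replicate 2, and Cebpe lies below them all.

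The order in Igf2 cKO muscle was the same at both ends. Cebpb stood at 111 ± 4.04 FPKM and Cebpd at 29.3 ± 10.0 (SD, n = 3). Cebpa (18.7 ± 10.5) and Cebpg (13.9 ± 0.49) came next with overlapping ranges. Of the summed FPKM of the 5 bZIP members, Cebpb made up 54.0%, 52.2% and 56.8% in Control muscle. The Igf2 cKO values were 64.6%, 64.6% and 63.0%, so its share was higher in each Igf2 cKO library than in any Control library. The share of Cebpg was lower in each Igf2 cKO library, at 8.28%, 7.76% and 8.01% against 11.8%, 13.1% and 17.0%. Its own FPKM was 12.7 in Control and 13.9 in Igf2 cKO muscle on average, so the lower share reflects the larger sum, most of which is Cebpb. The summed FPKM of the 5 was 91.9, 106 and 77.7 in Control and 175, 176 and 169 in Igf2 cKO muscle. These shares and sums hold the Cebpb levels on which the family was picked, so they describe that choice and support nothing by themselves.

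Cebpb, the member the family was picked for, was about 2-fold higher in Igf2 cKO muscle. In CPM (counts scaled to the TMM-adjusted library total), Cebpb had 75.2, 83.8 and 66.7 in Control muscle. The Igf2 cKO libraries had 171, 172 and 160.0 CPM. The groups did not overlap, and the libraries within each group lay close together. The means were 75.2 ± 8.57 and 168 ± 6.78 CPM (SD, n = 3 each), a 2.23-fold difference (95% interval 1.87 to 2.66). The log2 fold change was 1.16 ± 0.11 (SE, edgeR quasi-likelihood adjusted p = 0.00718). Leaving out single libraries gave values from 1.08 to 1.23. Without Control replicate 1 the adjusted p was 0.0503 and the call was lost, with the log2 fold change still at 1.16. In the authors' deposited table the log2 fold changes were 1.19, 1.04 and 1.27 for the pairs of libraries numbered 1, 2 and 3. None of these 3 comparisons of single libraries called it at an adjusted p under 0.05. Each of the 3 had an unadjusted p under 0.05 with a log2 fold change beyond 1, the looser rule stated with the series.

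**Figure D2:**
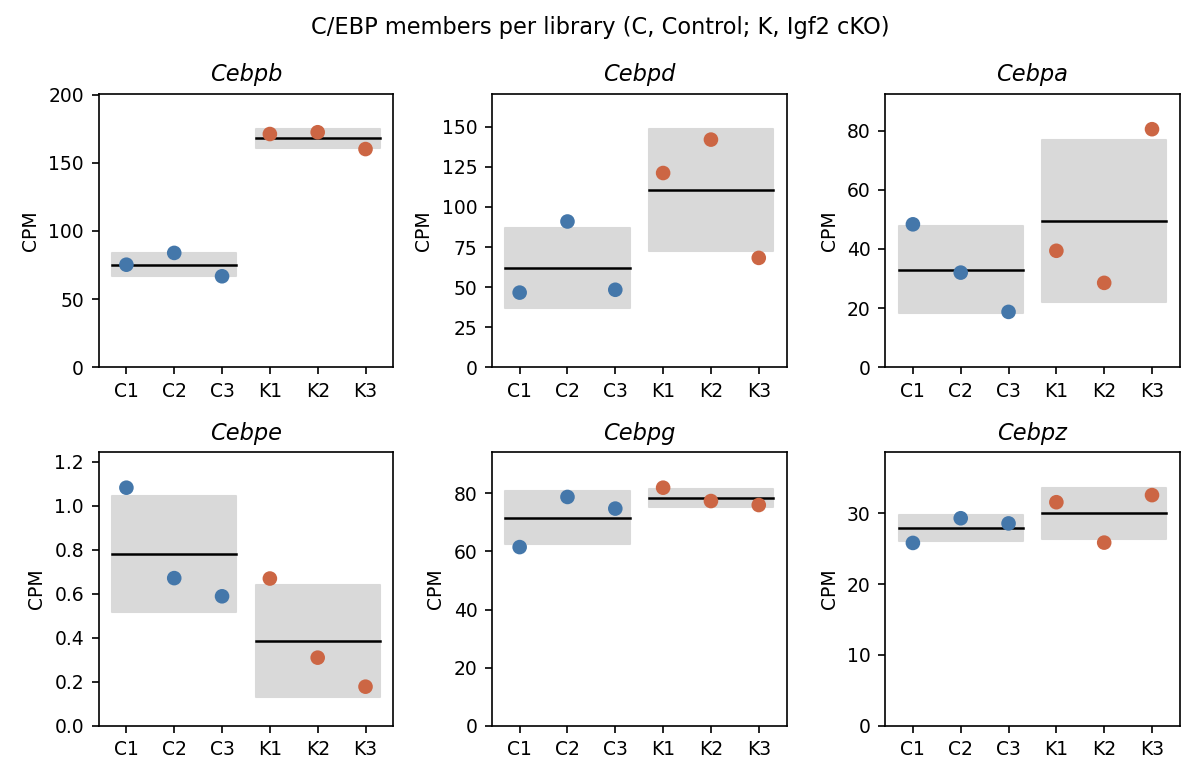
CPM of each member in Control (C1 to C3) and Igf2 cKO (K1 to K3) libraries, each panel with its own axis from 0, the black line at the group mean and the grey band 1 SD to each side. The groups are apart for Cebpb (66.7 to 83.8 against 160.0 to 172 CPM) and overlap for the other 5 members.

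Of the 6 members, 1 was called, where 0.249% of the 14867 genes were called by edgeR. Also 1 of 6 had groups that did not overlap, where 15.5% of all genes did, and 1 of 6 met the looser rule stated with the series (a log2 fold change beyond 1 in either direction with an unadjusted p below 0.05), where 1.58% did. In each case it was Cebpb, so these counts follow from the choice of the family. DESeq2 also called Cebpb alone of the 6, and it called 1.47% of its 14576 genes.

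Cell markers were summed by list. Of 9 marker lists, 3 had summed CPM that did not overlap between the same groups, where 15.5% of single genes did not overlap. The 54 tested markers gave 0 calls by edgeR, where 0.249% of all genes were called. Satellite cell markers summed to between 73.6 and 88.1 CPM in Control and between 99.6 and 116 CPM in Igf2 cKO libraries. Most of that sum was Sdc4 and Chodl, while Pax7, the defining satellite cell gene, had 8.82 to 9.35 CPM in Control and 8.23 to 11.4 in Igf2 cKO libraries. Muscle fibre markers summed to between 102944 and 126192 CPM in Control and between 83428 and 101467 in Igf2 cKO libraries. Much of that difference was Myh4, with means of 38322 CPM in Control and 26328 in Igf2 cKO muscle. Of the 8 fibre markers, 3 had a log2 fold change above 0. Red cell markers summed to between 449 and 617 CPM against 313 to 358. None of the markers in these 3 lists was at 0 throughout. The part of these cells in the level of Cebpb was not tested, and in bulk tissue fewer cells of a type and less RNA per cell cannot be told apart.

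The 300 bases around the start of Cebpb are shown because Cebpb is the member whose groups were apart, and those of Cebpg because it is a bZIP member whose groups overlapped. The RefSeq windows used here cover 3 of the 6 members, from 250 bases before to 50 bases after the annotated start, on build GRCm38.p6. Capitals mark TGACG or its reverse complement CGTCA, the core of cyclic AMP response elements, and the windows are chr2:167688665-167688964 (plus strand) and chr7:35056517-35056816 (minus strand).
Cebpb: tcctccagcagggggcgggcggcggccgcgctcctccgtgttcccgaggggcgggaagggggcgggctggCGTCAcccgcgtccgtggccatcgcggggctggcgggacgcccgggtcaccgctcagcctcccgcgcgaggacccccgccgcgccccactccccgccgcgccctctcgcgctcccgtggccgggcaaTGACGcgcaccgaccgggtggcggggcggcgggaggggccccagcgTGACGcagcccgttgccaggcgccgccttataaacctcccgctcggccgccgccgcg
Cebpg: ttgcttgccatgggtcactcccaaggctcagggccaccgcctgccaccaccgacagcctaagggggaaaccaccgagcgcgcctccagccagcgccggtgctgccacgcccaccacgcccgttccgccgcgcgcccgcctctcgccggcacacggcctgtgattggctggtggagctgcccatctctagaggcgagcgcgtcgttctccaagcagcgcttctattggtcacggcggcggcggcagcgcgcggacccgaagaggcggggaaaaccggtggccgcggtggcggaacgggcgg

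The Cebpb window held 3 matches to TGACG on either strand, starting 180, 53 and 7 bases before the annotated start. At least 1 match was present in 20.8% of the 32851 RefSeq windows of this length, and those of Cebpa and Cebpg had 0. The Cebpg window held 2 matches to CCAAT (as its reverse complement ATTGG), a motif in 37.4% of windows, and those of Cebpb and Cebpa had 0. TATAA was found in the windows of Cebpb, from base 22 after the annotated start and overlapping its reverse complement TTATA, and of Cebpa, 30 bases before it, and in 24.9% of all windows. Neither TTGCNNAA, a C/EBP core (10.8% of windows), nor TGTTCT, part of the glucocorticoid receptor element (19.0%), nor TTCNNNGAA, a STAT site (8.30%), was in any of the 3 windows. Cebpb's window was 80.7% G or C, against a median of 52.7%. A match describes letters in this window and not a bound site.

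Cebpd, the member usually induced together with Cebpb, had a higher mean in Igf2 cKO muscle and did not pass the test. It had 46.6, 90.9 and 48.3 CPM in Control and 121, 142 and 68.2 CPM in Igf2 cKO muscle. Control replicate 2 lay above Igf2 cKO replicate 3, so the groups overlapped. This gave a log2 fold change of 0.83 ± 0.32 (SE, 95% interval 0.11 to 1.56, edgeR adjusted p = 0.430), with an unadjusted p of 0.029. Leaving out Control replicate 2 gave 1.21, and leaving out Igf2 cKO replicate 2 gave 0.61, with a call in neither case. In the authors' deposited table its log2 fold changes were 1.38, 0.64 and 0.50 in the 3 pairs of libraries, with adjusted p from 0.144 to 1. With no filter on low counts edgeR gave the same change of 0.83 with an adjusted p of 0.0311.

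Cebpa, which drives adipocyte differentiation, had the largest within-group SD of log2 CPM among the members. It had 48.3, 32.0 and 18.7 CPM in Control and 39.4, 28.5 and 80.5 CPM in Igf2 cKO muscle. Igf2 cKO replicate 3 was the highest and Control replicate 3 the lowest, and the other 4 libraries of both genotypes lay between them. Between genotypes this gave a log2 fold change of 0.58 ± 0.41 (SE, 95% interval -0.37 to 1.53, edgeR adjusted p = 0.711). It became 0.04 without Igf2 cKO replicate 3, 0.31 without Control replicate 3 and 0.96 without Control replicate 1. The authors' deposited table calls Cebpa in the pair numbered 3, the 2 extreme libraries, with a log2 fold change of 2.11 and an adjusted p of 0.00046. That comparison calls 0.716% of its 20813 genes. In the pairs numbered 1 and 2 the authors' deposited table gives -0.29 and -0.16, each with an adjusted p of 1.

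Adipocyte markers followed the same libraries. All 8 were highest in Igf2 cKO replicate 3, and 7 of the 8 were lowest in Control replicate 3. Plin1, Cidec, Lep and Retn put the 6 libraries in the same order as Cebpa did. Adipoq, the gene of adiponectin, had 39.3, 27.7 and 6.28 CPM in Control and 21.6, 7.73 and 78.0 CPM in Igf2 cKO muscle. Lep, the gene of leptin, ranged from 0.458 CPM in Control replicate 3 to 39.1 CPM in Igf2 cKO replicate 3. The 8 markers together summed to between 501 and 876 CPM in Control and between 636 and 1541 CPM in Igf2 cKO libraries, and none was at 0. Cebpa and the adipocyte markers come from the same libraries, and the part of fat cells in the level of Cebpa was not tested.

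**Figure D3:**
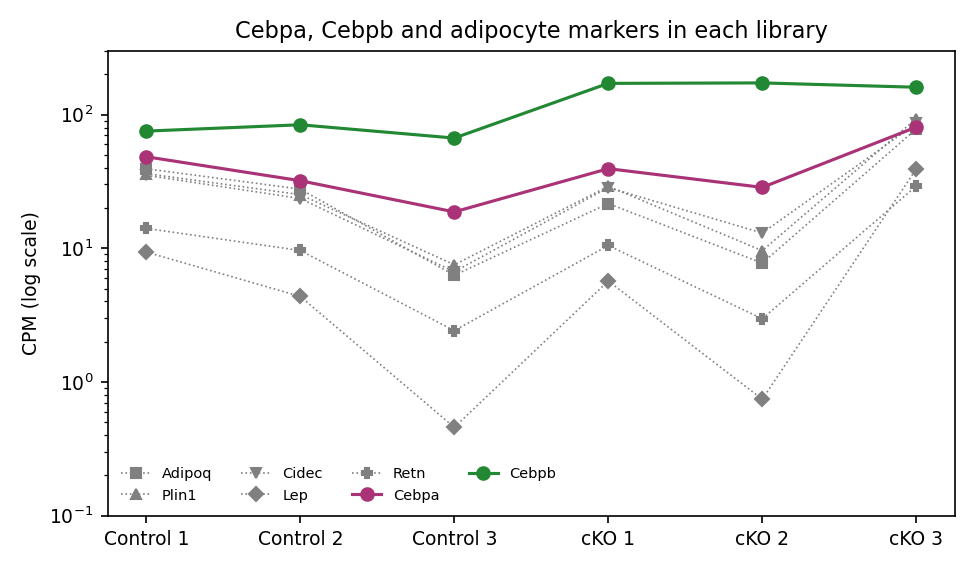
CPM on a log axis of Cebpa, Cebpb and 5 adipocyte markers in each library, with lines joining the values of a gene for the eye. Cebpa and the markers are highest in Igf2 cKO replicate 3 (Cebpa 80.5, Adipoq 78.0 CPM) and lowest in Control replicate 3 (18.7 and 6.28), while Cebpb separates by genotype.

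Cebpe, the granulocyte member, was close to the limit of detection. Its counts were 20, 12 and 9 in Control and 12, 5 and 3 in Igf2 cKO muscle. Igf2 cKO replicate 1 (0.669 CPM) lay above Control replicate 3 (0.589 CPM), so the groups overlapped, and the fitted difference on the log2 scale was -1.0 ± 0.53 (SE, 95% interval -2.21 to 0.21, edgeR adjusted p = 0.60). It ran from -1.67 without Igf2 cKO replicate 1 to -0.66 without Igf2 cKO replicate 3. Neutrophil markers were also scarce. The 10 of them summed to between 3.27 and 7.10 CPM in Control and between 2.79 and 5.2 CPM in Igf2 cKO libraries, and Ly6g was at 0 in 5 of the 6 libraries.

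Cebpg and Cebpz were the steady members. Cebpg, the dimer partner, had 61.5, 78.8 and 74.7 CPM in Control and 81.9, 77.3 and 76.0 CPM in Igf2 cKO muscle. Its log2 fold change was 0.13 ± 0.11 (SE, 95% interval -0.12 to 0.38, edgeR adjusted p = 0.766). Cebpz had 25.8, 29.3 and 28.6 CPM in Control and 31.6, 25.9 and 32.6 CPM in Igf2 cKO muscle. Its log2 fold change was 0.11 ± 0.11 (95% interval -0.16 to 0.37, adjusted p = 0.833). The groups overlapped for both genes.

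**Figure D4:**
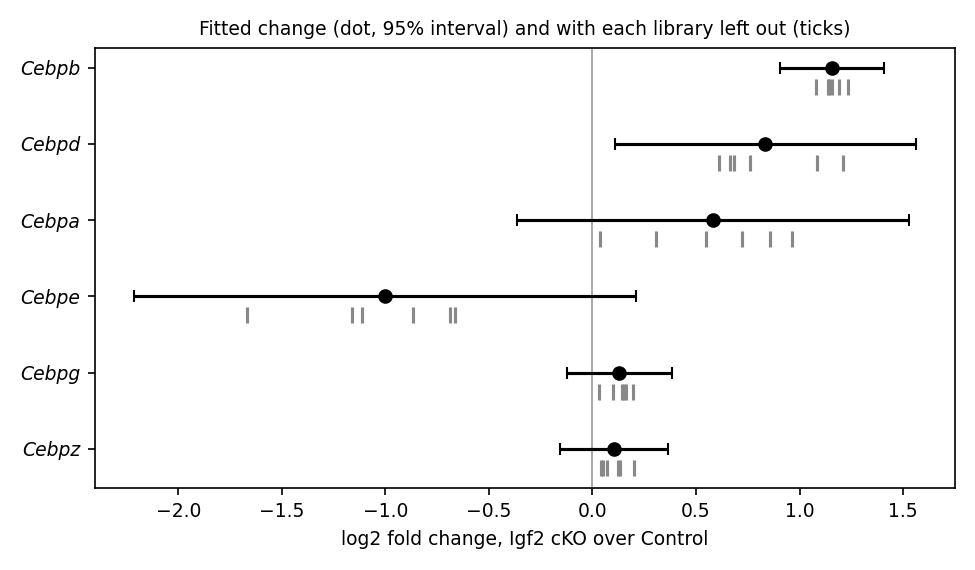
Log2 fold change of Igf2 cKO over Control for each member with its 95% interval (dot and bar), and the value with each of the 6 libraries left out (grey ticks). The ticks of Cebpb stay between 1.08 and 1.23, while those of Cebpa run from 0.04 to 0.96 and those of Cebpe from -1.67 to -0.66.

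The spread between libraries of 1 genotype was small for 3 members and large for the other 3. A rise is easier to see where the spread is small, so the spread of Cebpb is not independent of the choice of the family. The within-group SD of log2 CPM was 0.12 for Cebpb, 0.14 for Cebpg and 0.14 for Cebpz. These stand at the 25.8th, 31.8th and 33.9th percentile of the 14867 genes. Cebpd (0.55), Cebpe (0.58) and Cebpa (0.73) stand at the 91.4th, 92.6th and 96.2th percentile. Low counts add to this spread for Cebpe, whereas Cebpd and Cebpa had at least 286 counts in each library.

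Among 22 genes of bZIP dimer partners and relatives, 21 were tested and 1 was called by edgeR, where 0.249% of all genes were called. That gene was Nfil3, a bZIP repressor, with 14.3, 19.8 and 19.7 CPM in Control and 43.3, 60.3 and 36.3 CPM in Igf2 cKO muscle. Its groups did not overlap, and the log2 fold change was 1.38 ± 0.20 (SE, edgeR adjusted p = 0.0459). The call was lost with limma-voom (0.056) and without Control replicate 1 (0.163), Control replicate 2 (0.136), Control replicate 3 (0.164) or Igf2 cKO replicate 1 (0.0701). Atf3, a stress-induced bZIP factor, had 5.17 to 10.1 CPM in Control and 14.9 to 23.6 CPM in Igf2 cKO libraries, a log2 fold change of 1.41 ± 0.26 that edgeR did not call (adjusted p = 0.107) and DESeq2 did (5.73e-05). Ddit3 (CHOP), a C/EBP relative that forms dimers with C/EBPs, had 9.69 to 13.6 CPM in Control and 10.6 to 15.3 CPM in Igf2 cKO libraries. Its log2 fold change was 0.14 ± 0.18 (adjusted p = 0.858). Atf5, Fosl2 and Jund, also bZIP factors, had log2 fold changes of 0.27, 0.36 and 0.42 that were not called (edgeR adjusted p from 0.388 to 0.499), and with Nfil3 and Atf3 they made up the 5 genes at an unadjusted p under 0.05. Over all genes tested 9.93% reached that p. Of the 21, 15 lay above 0, and the list median was 0.18, beside a median of 0.00 and 50.8% above 0 over all genes tested.

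Upstream regulators and cofactors of C/EBP proteins were described in the same way. Over all genes tested edgeR called 0.249% and DESeq2 1.47%, and 9.93% had an unadjusted edgeR p under 0.05. Of 25 tested genes 0 were called by edgeR and limma-voom, 1 by DESeq2, and 2 had an unadjusted p under 0.05. Those 2 were Trib2 and Cdk2. Trib2, a pseudokinase that targets C/EBPα for degradation, had 57.8, 68.0 and 67.7 CPM in Control and 38.6, 47.8 and 41.9 CPM in Igf2 cKO muscle. Each Igf2 cKO library was lower than each Control library, and the log2 fold change was -0.59 ± 0.11 (SE, edgeR adjusted p = 0.116, DESeq2 0.00431). Cdk2, a kinase that phosphorylates C/EBPβ, was at -0.44 ± 0.13 (adjusted p = 0.284). The list median was -0.08, with 6 of 25 above 0.

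Genes known as C/EBP targets in other tissues, and muscle genes tied to C/EBP, gave 0 calls by edgeR in each of 5 lists. Over all genes tested 0.249% were called, so 0 calls in lists this short says little about them. For adipocyte and lipid targets 15 of 15 were tested, 14 lay above 0 and the median was 0.54. Of these 15 genes 8 are also the adipocyte markers above, which were highest in Igf2 cKO replicate 3. Without that library 5 of 15 lay above 0 and the median was -0.08. The 7 genes that are not markers had a median of 0.20 with all libraries. Without Igf2 cKO replicate 3 their median was 0.095, with 5 of 7 above 0. DESeq2 and limma-voom called 0 of the 15. Over all genes tested 9.93% had an unadjusted p under 0.05, and 1 of the 15 did. That gene was Agpat2, an enzyme of triglyceride synthesis (0.66 ± 0.24, adjusted p = 0.397), which was at 0.35 without Igf2 cKO replicate 3. Fasn, fatty acid synthase, had 43.7 to 96.3 CPM in Control libraries and 133, 50.8 and 428 CPM in Igf2 cKO muscle, highest in the library where Cebpa and the adipocyte markers were highest. Its log2 fold change of 1.48 ± 0.65 (adjusted p = 0.506) became 0.33 without that library.

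Of myeloid and granule targets 9 of 18 had enough counts to be tested. Their median was -0.34, and 2 lay above 0. edgeR, DESeq2 and limma-voom called 0, with 0 at an unadjusted p under 0.05, where 9.93% of all genes tested reached it. Lcn2, the gene of lipocalin 2 and also an acute phase gene, was at 0.90 ± 0.40 (SE, edgeR adjusted p = 0.507) with 9 to 30 counts, and Csf3r, the receptor of granulocyte colony-stimulating factor, at -0.59 ± 0.34 (0.625). Of acute phase and inflammatory targets 12 of 20 were tested, with a median of 0.07 and 7 above 0. All 3 tools called 0, and Nos2, inducible nitric oxide synthase, was the 1 gene at an unadjusted p under 0.05 (-0.49 ± 0.17, adjusted p = 0.372, and -0.31 without Igf2 cKO replicate 1).

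Liver and fuel metabolism targets had a median of 0.09 over 9 tested of 13, with 5 above 0. All 3 tools called 0, and 3 had an unadjusted p under 0.05, where 9.93% of all genes tested did. Pck1, a gluconeogenic and glyceroneogenic enzyme, had 7.74, 7.16 and 1.57 CPM in Control and 15.2, 10.6 and 64.4 CPM in Igf2 cKO muscle. Its log2 fold change of 2.43 ± 0.74 (edgeR adjusted p = 0.308) became 1.22 without Igf2 cKO replicate 3. Foxo1, a transcription factor restrained by insulin, was at 0.28 ± 0.10 (adjusted p = 0.384), and Gadd45b, a stress-induced gene, at -0.54 ± 0.23 (0.491).

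Muscle growth, wasting and satellite cell genes tied to C/EBP had a median of -0.06 over 14 tested of 15, with 6 above 0. edgeR and limma-voom called 0, DESeq2 called 1, and 4 had an unadjusted p under 0.05. Over all genes tested DESeq2 called 1.47%, and 9.93% reached that unadjusted p. Fbxo32 (atrogin-1), a ubiquitin ligase gene that C/EBPβ is known to activate in wasting, had 147, 169 and 233 CPM in Control and 66.2, 140.0 and 70.5 CPM in Igf2 cKO muscle. Each Igf2 cKO library was lower than each Control library while Cebpb was higher, and a link between these genes was not tested. The log2 fold change was -0.99 ± 0.29 (SE, edgeR adjusted p = 0.295, DESeq2 0.0254), and without Igf2 cKO replicate 2 it was -1.42 with an adjusted p of 0.0214. Leaving out any of the other 5 libraries gave -1.13 to -0.78 with adjusted p from 0.399 to 0.569. Klf15, a metabolic transcription factor, was at 0.55 ± 0.15 (adjusted p = 0.263). Acvr2b, a receptor of myostatin, was at -0.59 ± 0.18 (0.311), and Myod1, a myogenic transcription factor, at 0.71 ± 0.24 (0.368).

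**Figure D5:**
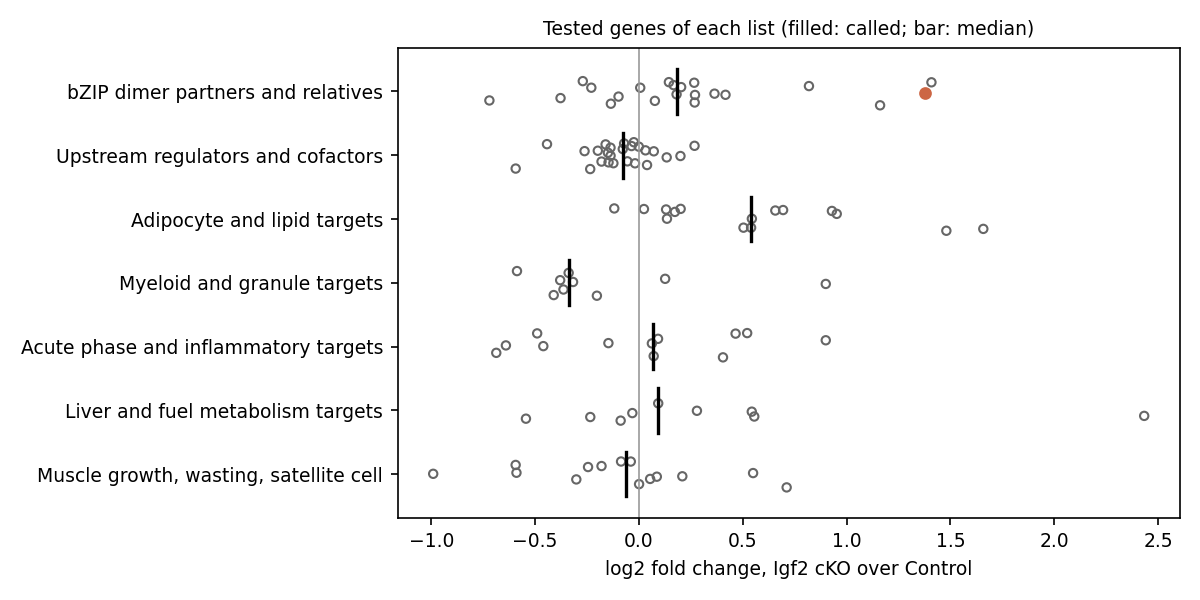
Log2 fold change of Igf2 cKO over Control for each tested gene of the 7 lists (circles, spread vertically for view), with the median of each list as a black bar and called genes filled. Nfil3 is the 1 filled circle, and the medians run from -0.34 (myeloid and granule targets) to 0.54 (adipocyte and lipid targets).

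The genes most like Cebpb across the 6 libraries were found among 13776 other genes with a mean of at least 1 CPM, by the root mean square difference of log2 CPM after centring each gene on its own mean. Among the nearest were Nfkbia (0.09), Noct (0.10), Sgk1 (0.13) and Rhob (0.14). Nfkbia, an inhibitor of NF-κB, had 41.5, 47.3 and 33.9 CPM in Control and 89.5, 87.8 and 98.0 CPM in Igf2 cKO muscle. Sgk1, a kinase induced by serum and glucocorticoids, had 256, 234 and 204 CPM against 457, 454 and 449 CPM. Cebpb, Nfkbia, Sgk1 and Rhob were lowest in Control replicate 3, and Noct, the gene of nocturnin, was lowest in Control replicate 1. Of the other members Cebpd was nearest to Cebpb, at rank 393 (0.41), followed by Cebpg at rank 2403 (0.53), Cebpz at rank 3583 (0.56) and Cebpa at rank 9359 (0.66). The measure holds the genotype difference itself, so it describes likeness over these libraries and nothing more.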

How the data were processed

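Groups and replicate numbers were read from the sample titles. Per the file headers, the authors deposited raw counts and FPKM for each gene and library. The authors' deposited table also holds, for 3 pairs of single libraries, the log2 fold change and its raw and adjusted p-value, by a test that the sources used here do not name. The sources used here do not give aligner, counter, strand setting or build. The listed coordinates match GENCODE M21 (GRCm38). Another 6 columns of per-sample values were not used.

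Counts were tested with the edgeR 4.0.16 quasi-likelihood test in R 4.3.3, with genotype as the single term, TMM factors, filterByExpr and Benjamini-Hochberg adjustment over all 14867 genes, called at an adjusted p under 0.05. SEs were derived from the F statistic. The fit was tested on simulated data. DESeq2 1.42.0, limma-voom (limma 3.58.1), other size factors and filters, the replicate block and leaving out each library were alternatives. For a symbol listed more than 1 time the row with the most counts was taken.

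Members and lists were chosen with earlier results of these data known. Named genes were the 6 members, Ddit3, Igf2, the called members of each list (up to 4, or, with under 2 called, the 2 of lowest p) and the 5 genes most like Cebpb. One item that this rule names is not reported here. Atf5, Fosl2, Jund, Gadd45b, Acvr2b, Myod1, Sdc4, Chodl, Pax7, Ly6g, the adipocyte markers and the genes overlapping a member were named outside this rule, after their values were seen. Promoter windows came from RefSeq (GRCm38.p6).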

Additional observations from a re-analysis of the deposited data

How the results depend on the processing

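The direction of each member was the same under every alternative compared for it, and all scalings left the median of all genes within 0.1 of its value. The number of genes called was 37, and 282 with no filter on low counts, 214 with DESeq2, 235 by the rule the series states and between 8 and 68 with 1 library left out. Of the 6 members 1 was called, 2 with no filter on low counts (Cebpd joining at a log2 fold change of 0.83) and between 0 and 1 with 1 library left out. Cebpb lay between 1.08 and 1.23 with 1 library left out, with an adjusted p between 0.0057 and 0.0503, and it failed without Control replicate 1. Members called in the list of bZIP partners were 1, and 2 with DESeq2, with no filter on low counts and by the rule the series states, and 0 with limma-voom. They were 0 in the muscle list and 3 with no filter on low counts, which also called 1 each among upstream regulators, adipocyte targets and liver targets. Over all genes, 282 of 26318 were called with no filter, 1.47% with DESeq2 and 1.58% by the rule the series states. The median of the adipocyte list, looked at in this way after its values were seen, was -0.08 without Igf2 cKO replicate 3, 0.18 with Control replicate 3 left out and 0.95 with Igf2 cKO replicate 2 left out. Cebpe got no adjusted p from DESeq2, so its DESeq2 value was not compared, and the filter on CPM left it out. The level order in Control muscle was the same for 6 of 6 members with CPM per kilobase. For Cebpe at 3 to 20 counts the depth limits what can be seen.

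Replicate numbers occur in both groups, but the labels state no pairing, so the numbers were not taken as one. Deviations of same-numbered libraries from their group means had correlations of 0.163, 0.0581 and -0.0425 for numbers 1, 2 and 3. With 3 libraries per group these correlations cannot exclude a pairing. With the replicate block 35 genes were called, Cebpb stood at 1.16 (adjusted p = 0.0135) and Cebpd at 0.84 (0.154), and Atf3 was called (0.0151), so that 2 bZIP partners were.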
